A study of Mus musculus with 8 samples.

Results

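Mitochondrial fusion and fission genes were examined in splenic cDC1, the type 1 conventional dendritic cells that present antigen to CD8 T cells. The members were given by symbol: the fusion genes Opa1, Mfn1 and Mfn2, the fission genes Dnm1l, Fis1, Mff, Mief1 and Mief2, and the genes for OPA1 processing, Oma1 and Yme1l1. Each of the 10 symbols matched 1 probe set, so the genes stand for 10 of the 22206 probe sets tested. The cells came from naive wild-type C57BL/6 mice and were sorted by a signal written TMRM/MG; TMRM is a dye drawn into mitochondria by their membrane potential, and MG is not spelled out in the labels. The TMRM/MG-high fraction and the TMRM/MG-low fraction were each measured on 4 Affymetrix whole-transcript arrays, numbered 1 to 4, and all 8 arrays share strain, organ and untreated state. No label ties a number to a mouse, a pool of mice or a sort, so the p-values reflect the spread among these arrays alone, which could be technical.

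Mitochondria join and divide continually. Mitofusins (MFN1 and MFN2) are GTPases that fuse the outer membranes, and OPA1 is the GTPase that fuses the inner membranes and shapes the cristae. Division is driven by DRP1, the dynamin-like GTPase encoded by Dnm1l, which is drawn from the cytosol to the outer membrane by receptors (MFF, and MiD51 and MiD49 encoded by Mief1 and Mief2) and constricts the tubule; FIS1 is a further outer membrane adaptor. OPA1 is cut from long to short forms by OMA1, a protease activated when the membrane potential is lost, and by YME1L, an ATP-driven protease. The arrays measure transcripts summed over a gene, so splice forms, cleavage of OPA1 and phosphorylation of DRP1 are not seen here.

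The promoter windows of 3 genes are shown because Dnm1l and Fis1 were the members called higher and Opa1 was not. Each runs from 250 bases before to 50 bases after a RefSeq start site (GRCm38.p6), 5′ to 3′ on the gene's strand. The windows are chr16:16358526-16358825 on the minus strand for Dnm1l, chr5:136953025-136953324 on the plus strand for Fis1 and chr16:29579084-29579383 on the plus strand for Opa1. Capitals mark matches, on either strand, to CCGGAAG, the core bound by the ETS factor GABP, or to GCGCATGCGC, the palindrome of nuclear respiratory factor NRF1; both factors are known for control of nuclear genes for mitochondria.
Dnm1l: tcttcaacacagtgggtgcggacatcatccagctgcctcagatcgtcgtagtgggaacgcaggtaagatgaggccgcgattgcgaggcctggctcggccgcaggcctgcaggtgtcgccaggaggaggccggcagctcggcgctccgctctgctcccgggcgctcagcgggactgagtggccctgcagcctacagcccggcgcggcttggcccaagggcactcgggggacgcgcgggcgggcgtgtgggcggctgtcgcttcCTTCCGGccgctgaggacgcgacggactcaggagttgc
Fis1: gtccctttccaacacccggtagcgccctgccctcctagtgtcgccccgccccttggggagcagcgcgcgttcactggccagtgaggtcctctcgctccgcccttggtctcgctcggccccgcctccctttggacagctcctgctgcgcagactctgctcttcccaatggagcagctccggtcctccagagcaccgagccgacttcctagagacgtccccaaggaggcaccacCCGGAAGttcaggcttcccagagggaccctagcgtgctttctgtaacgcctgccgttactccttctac
Opa1: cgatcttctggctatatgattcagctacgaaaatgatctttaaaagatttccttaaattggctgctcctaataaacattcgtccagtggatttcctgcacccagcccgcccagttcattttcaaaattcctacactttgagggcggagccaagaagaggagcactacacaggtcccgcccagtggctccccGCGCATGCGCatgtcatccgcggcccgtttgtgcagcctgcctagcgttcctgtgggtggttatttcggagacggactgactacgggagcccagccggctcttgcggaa
All 10 members had at least 1 promoter window, 15 in all, and some had several: the second Dnm1l window (chr16:16358982-16359281) holds no GABP core, and the second Fis1 window (chr5:136961827-136962126) holds 1. Of the Dnm1l windows, the one shown is the one with a match. On the minus strand of the gene it lies downstream of the window without a match. Dnm1l is counted below through this downstream window alone. Which start site these cells use was not tested. The GABP core was found in at least 1 window of 5 of the 10 members (Mfn1, Dnm1l, Fis1, Mief1 and Yme1l1), against 9.93% of the 27025 genes in the promoter table. The NRF1 palindrome was found in Opa1 alone among the 10, against 1.07% of genes. Also searched on both strands were AAGATGGCG (YY1), CAAGGTCA (ERR) and TGACGTCA (CREB), found in none of the 15 windows and in 1.64%, 1.76% and 2.03% of genes. These letters were searched with the sequences in view, and a match is a description of the window, not of binding.

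Of the 10 members, 2 rose in TMRM/MG-high cells and 0 fell. Both were fission genes: Dnm1l was 1.32-fold and Fis1 1.22-fold higher. Over all probe sets, 5.28% were called higher and 2.96% lower, 8.25% in either direction (limma, Benjamini-Hochberg adjusted p under 0.05). The share of 2 in 10 is above that background, but it rests on 2 genes and was not tested against it. The median difference of the members was 0.24 on the log2 scale, against 0.0093 over all probe sets tested, and 8 of 10 differences were above 0, against 52.1% of all probe sets. In 4 members (Dnm1l, Fis1, Yme1l1 and Mfn2) all high arrays lay above all low arrays, which held for 9.7% of all probe sets; the reverse held for 0 members and 6.37% of probe sets, 16.1% being separated in either direction. By role, the median difference was 0.15 for the 3 fusion genes, 0.20 for the 5 fission genes and 0.38 for the 2 processing genes, with 0, 2 and 0 calls. The signs of all 10 differences were the same after quantile normalization of the tested probe sets and after centring on array medians, but each of these left 1 call, Dnm1l. Over all probe sets, 64.1% of calls were higher, and 49.8% after quantile normalization.

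**Figure D1:**
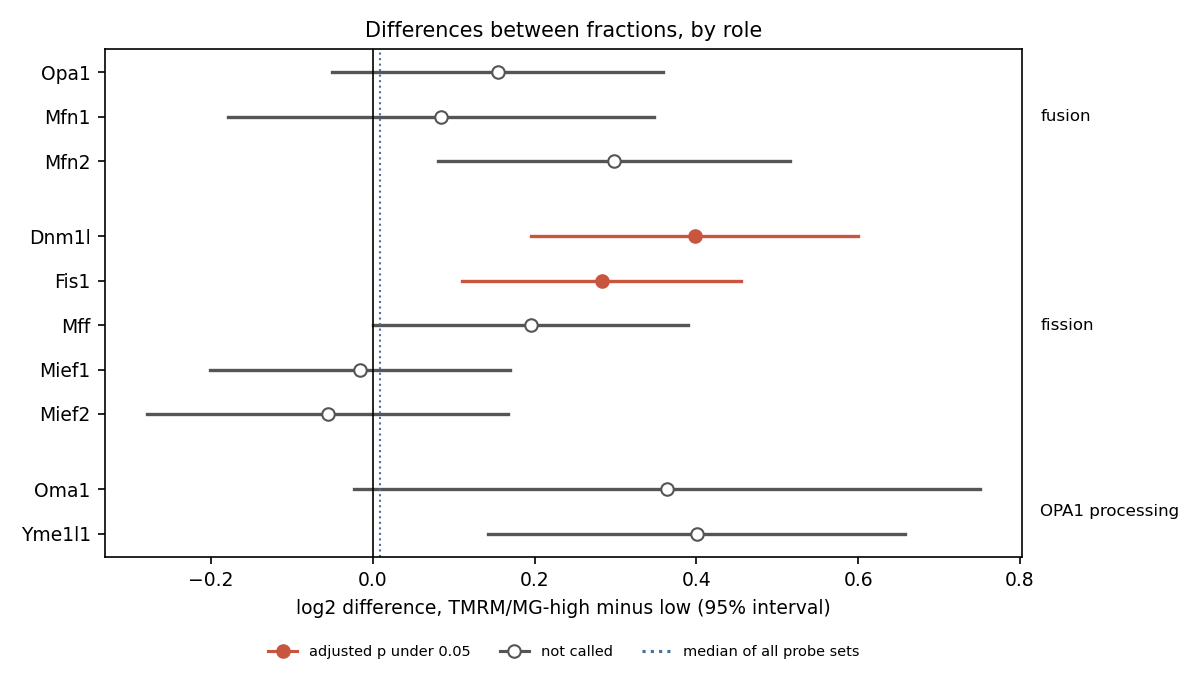
Log2 difference (TMRM/MG-high minus low, 4 arrays each) with its 95% interval for each gene, grouped by role; filled red points have a limma adjusted p under 0.05, and the dotted line is the median of all probe sets (0.0093). Dnm1l (0.40) and Fis1 (0.28) are the called genes, and Mief1 (-0.016) and Mief2 (-0.056) lie just below 0.

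The labelled cell type and the presence of other cells were checked with fixed markers; none of these reports the TMRM/MG signal itself. The cDC1 markers Xcr1 (12.65 high, 12.51 low) and Clec9a (11.78 high, 11.99 low) were bright in both fractions, and 0 of 8 cDC1 markers were called. All high arrays of Clec9a lay below all low arrays (difference -0.21, limma adjusted p = 0.104), and it was called lower with a robust fit and intensity trend (adjusted p = 0.0125), without dim probe sets (0.0113) and after quantile normalization (-0.29, adjusted p = 0.0398). Other cDC1 markers went the other way. All high arrays of Xcr1 (0.14, limma adjusted p = 0.305) and of Cd8a (0.31, adjusted p = 0.0639) lay above all low arrays. The median difference of the 8 cDC1 markers was 0.0016. Of 8 markers of plasmacytoid dendritic cells 6 were higher, including Siglech (10.7 ± 0.37 high and 8.94 ± 0.23 low, SD, n = 4), with a mean level of 10.2 to 10.6 in the high and 9.57 to 9.67 in the low arrays. Of 6 measured T and NK cell markers 3 were lower, including Cd3e (8.70 ± 0.050 high and 9.56 ± 0.38 low, SD, n = 4), with a mean level of 8.64 to 9.29 in the high and 9.06 to 10.03 in the low arrays; 5 of the 6 had means at or under the 95th percentile of the negative controls in both fractions. No marker was called among 6 of cDC2, 4 of B cells, 5 of macrophages and neutrophils and 1 of erythroid cells. The macrophage and neutrophil markers had a median difference of -0.46 and a mean level of 9.44 to 9.92 in the high and 9.82 to 10.39 in the low arrays, with S100a8 at -0.84 (limma adjusted p = 0.0892) and S100a9 at -0.68 (adjusted p = 0.0514). They did not move alike. The other measured markers of this list were Mpo (-0.46, limma adjusted p = 0.481), Adgre1 (-0.079, adjusted p = 0.790) and Csf1r (0.015, adjusted p = 0.956). The 8 spike-in probe sets averaged 8.88 to 9.43 in the high and 9.79 to 10.2 in the low arrays, without overlap. These values move with the fractions in every comparison that follows, and the part of other cells in the results was not tested. In bulk samples fewer cells of a type and less RNA per cell cannot be told apart.

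Dnm1l, the gene of the constricting GTPase DRP1, had the smallest p of the 10. Its log2 signal was 11.53, 11.64, 11.72 and 11.65 in high replicates 1 to 4 and 11.13, 11.25, 11.44 and 11.13 in low replicates 1 to 4. The groups did not overlap, and low replicate 3 was the low array nearest the high ones. The means were 11.63 ± 0.075 and 11.24 ± 0.15 (SD, n = 4), a difference of 0.40 (SE 0.093, 95% interval 0.20 to 0.60, limma adjusted p = 0.0266). The sign held on leaving out each array, with differences of 0.36 to 0.47. The call was kept in 2 omissions, of low replicate 3 (adjusted p = 0.0103) and of high replicate 1 (0.0282), and was lost without low replicate 1 (0.0708), 2 (0.0602) or 4 (0.0678) or high replicate 2 (0.0763), 3 (0.0829) or 4 (0.0641).

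Fis1 encodes a small tail-anchored adaptor of the outer membrane. Its signal was 11.39, 11.51, 11.50 and 11.49 in the high and 11.09, 11.20, 11.29 and 11.18 in the low replicates, in order of their numbers. The fractions did not overlap, and the spread within them was narrow: only 6.08% of all probe sets had a pooled SD at or below that of Fis1. The difference was 0.28 (SE 0.079, 95% interval 0.11 to 0.46), with a limma adjusted p = 0.0485, close to the threshold of 0.05. It ranged from 0.25 to 0.32 on leaving out 1 array. The call was kept in 2 omissions, of low replicate 3 (adjusted p = 0.0355) and of high replicate 1 (0.0460), and was lost without low replicate 1 (0.118), 2 (0.0965) or 4 (0.0999) or high replicate 2 (0.129), 3 (0.129) or 4 (0.104).

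The 3 receptors for DRP1 were not called. Mff, whose product is a main docking site for DRP1, had signals of 10.70, 10.75, 10.62 and 10.68 in the high and 10.37, 10.63, 10.60 and 10.37 in the low replicates. Low replicates 1 and 4 were low, while low replicates 2 and 3 reached the level of high replicate 3. The difference was 0.20 (SE 0.089, 95% interval 0.00028 to 0.39, limma adjusted p = 0.196).

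Mief1 and Mief2 encode the related receptors MiD51 and MiD49. Mief1 was 10.06, 9.98, 10.01 and 10.17 in the high and 10.11, 10.11, 10.14 and 9.92 in the low replicates, with a difference of -0.016 (95% interval -0.20 to 0.17, limma adjusted p = 0.933). The fractions overlapped throughout, and low replicate 4 stood below the other low arrays. Mief2 was 8.51, 8.52, 8.59 and 8.23 in the high and 8.61, 8.35, 8.48 and 8.64 in the low replicates, with a difference of -0.056 (95% interval -0.28 to 0.17, limma adjusted p = 0.786). Its lowest array was high replicate 4. These intervals leave out a rise of the size measured for Dnm1l (0.40).

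**Figure D2:**
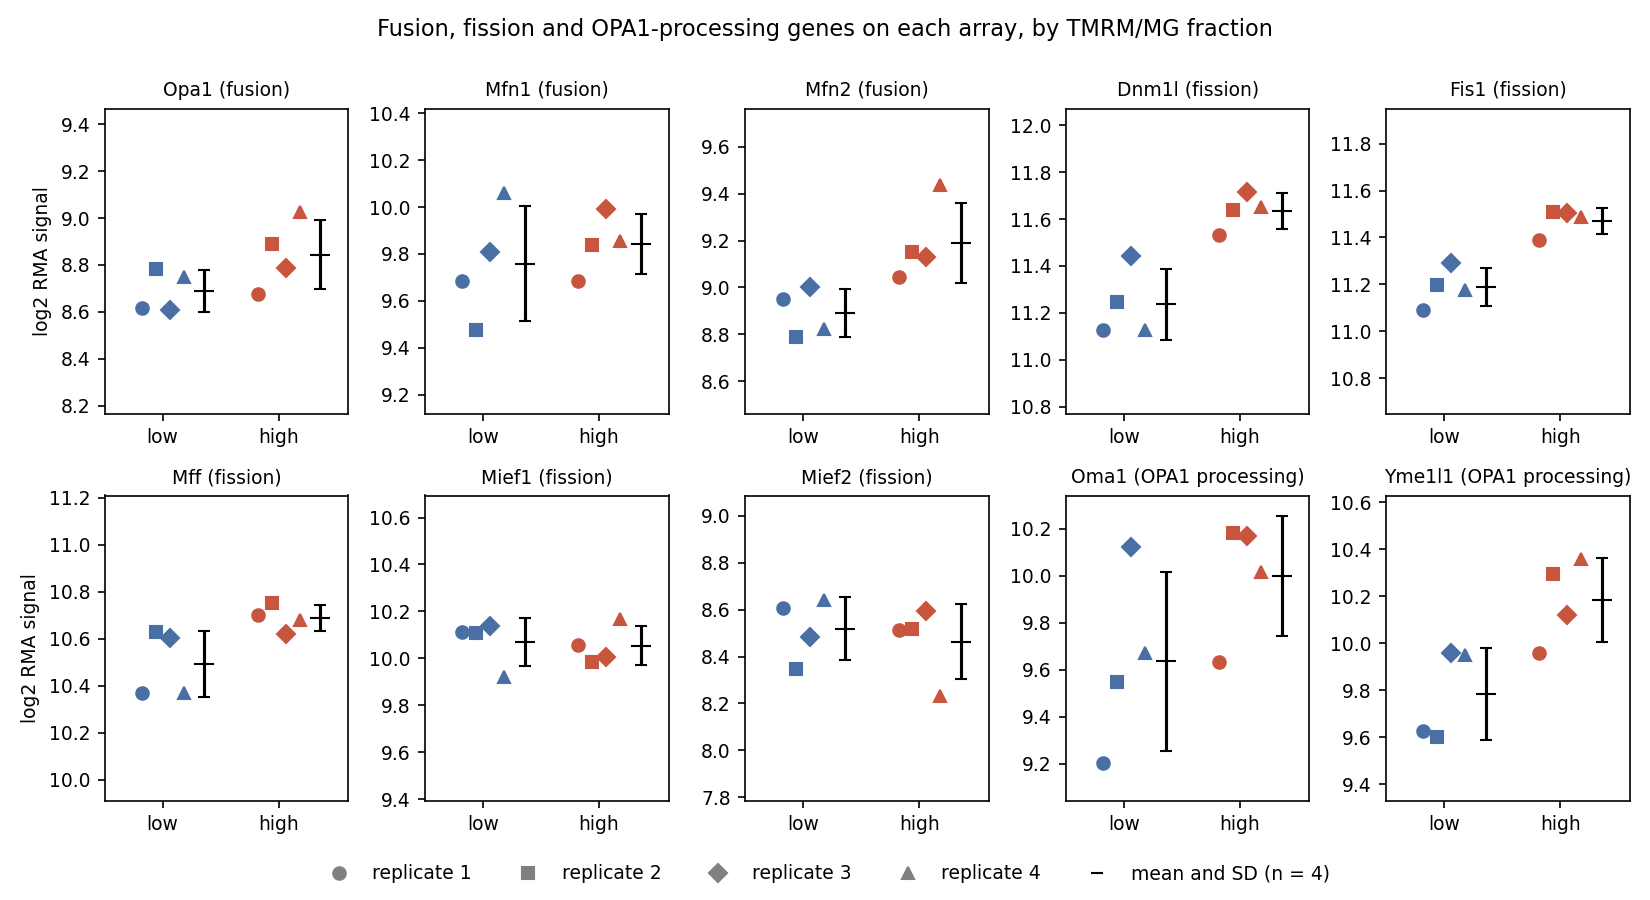
Log2 RMA signal (y axis, each panel spanning the same log2 range) of each gene on each array, by fraction; marker shapes give the replicate number, and the bar is the mean with its SD (n = 4). All high points lie above all low points for Dnm1l, Fis1, Mfn2 and, narrowly, Yme1l1, while Mief1, Mief2, Mfn1, Opa1, Mff and Oma1 overlap.

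None of the 3 fusion genes was called. Their means over the 8 arrays were all at or under the 95th percentile of the negative controls (9.92). Of the 5 fission genes, only Mief2 was that dim. How signal level bears on the contrast of fusion and fission genes was not tested. Mfn2, the mitofusin that also tethers mitochondria to the endoplasmic reticulum, came nearest to a call. Its signal was 9.04, 9.15, 9.13 and 9.43 in the high and 8.95, 8.79, 9.003 and 8.82 in the low replicates. High replicate 4 stood highest and the fractions did not overlap, although high replicate 1 and low replicate 3 were close. The difference was 0.30 (SE 0.10, 95% interval 0.080 to 0.52, limma adjusted p = 0.0875), and without high replicate 4 it was 0.22 (adjusted p = 0.202).

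Opa1, the inner membrane fusion gene, was 8.68, 8.89, 8.79 and 9.02 in the high replicates and 8.62, 8.78, 8.61 and 8.75 in the low replicates. High replicate 1 lay among the low arrays. Its difference of 0.15 (SE 0.094, 95% interval -0.050 to 0.36, limma adjusted p = 0.333) did not pass the test, and without high replicate 4, the highest array, it was 0.095. Mfn1, the other mitofusin, was 9.68, 9.84, 9.99 and 9.86 in the high and 9.69, 9.48, 9.81 and 10.06 in the low replicates. The highest and the lowest of its 8 values were both low-fraction arrays, and the difference was 0.084 (SE 0.12, 95% interval -0.18 to 0.35, limma adjusted p = 0.718).

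The genes for OPA1 processing had differences near that of Dnm1l, with pooled SDs of 0.19 (Yme1l1) and 0.32 (Oma1) against 0.12 for Dnm1l, and were not called. Yme1l1 was 9.960, 10.29, 10.12 and 10.36 in the high and 9.63, 9.60, 9.958 and 9.95 in the low replicates. The fractions were separated only by the narrow gap between high replicate 1 and low replicate 3. The difference was 0.40 (SE 0.12, 95% interval 0.14 to 0.66) with a limma adjusted p = 0.0585, just outside the threshold. It passed when low replicate 3 (0.46, adjusted p = 0.0389) or high replicate 1 (0.47, adjusted p = 0.0359) was left out. It also passed with an intensity trend and robust fit (adjusted p = 0.0251), with array weights (0.0431) and with dim probe sets left out (0.0145). Quantile normalization (limma adjusted p = 0.0819), centring on array medians (0.0712) and every other omission of 1 array (0.0668 to 0.158) gave no call.

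Oma1 was 9.63, 10.18, 10.17 and 10.01 in the high replicates and 9.20, 9.55, 10.12 and 9.67 in the low replicates. High replicate 1 lay at the level of the low arrays and low replicate 3 at that of the high arrays. Its pooled SD was at the 97.6th percentile of all probe sets, and the difference of 0.36 (SE 0.18, 95% interval -0.024 to 0.75, limma adjusted p = 0.225) did not pass. It passed without low replicate 3 (0.53, adjusted p = 0.0493) and was 0.22 without low replicate 1. Leaving out low replicate 3 thus gave 4 calls among the 10 members (Dnm1l, Fis1, Oma1 and Yme1l1) with 1680 higher and 793 lower over all probe sets. Leaving out high replicate 1 gave 3 (Dnm1l, Fis1 and Yme1l1), and each of the other 6 omissions gave 0.

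**Figure D3:**
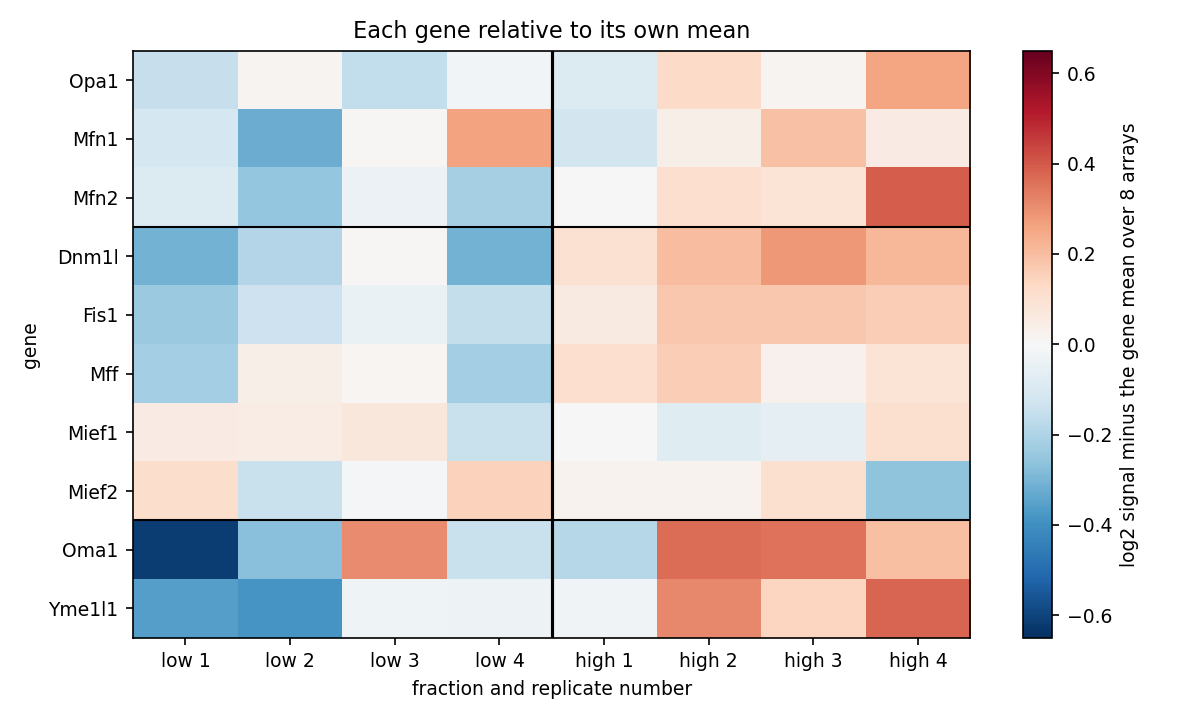
Log2 signal of each gene minus its own mean over the 8 arrays (colour), with arrays in columns by fraction and replicate number and genes in rows by role. Low replicate 3 and high replicate 1 are the arrays nearest 0 in their fractions for Dnm1l, Fis1, Mfn2 and Yme1l1, and Oma1 spans the widest range, from -0.61 to 0.36.

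A call in one gene and not in another does not show that they differ, so the change of Dnm1l was set against each fusion gene within arrays. The log2 ratio of Dnm1l to Opa1 was 0.24 higher in the high fraction (2.63 to 2.93 against 2.38 to 2.83, two-sided exact permutation p = 0.0857). The ratio to Mfn1 was 0.31 higher (1.72 to 1.85 against 1.06 to 1.77, exact permutation p = 0.0571), and the ratio to Mfn2 was 0.10 higher (exact permutation p = 0.343). The ratio of Oma1 to Yme1l1 differed by -0.037 (exact permutation p = 0.8286). None passed a threshold of 0.05, before or after adjustment over the 4 pairs (adjusted p = 0.171, 0.171, 0.457 and 0.8286), and the smallest p that 4 against 4 arrays can give is 0.0286. After adjustment a single pair could not have passed on its own, even if fully separated. A different change of the fission GTPase and the fusion genes was therefore not shown. The pairs were chosen with earlier results known.

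Averaged by role after centring each gene on its mean, the fission genes ran from 0.057 to 0.11 in the high and from -0.13 to 0.0096 in the low arrays. The fusion genes ran from -0.068 to 0.24 and from -0.19 to 0.0089, and the processing genes from -0.10 to 0.34 and from -0.49 to 0.14. The fission averages did not overlap between the fractions, while those of fusion and processing did. In both of these sets high replicate 1 lay below low replicates 3 and 4, and the other high arrays lay above all low arrays. The fission genes did not move alike. Their log2 differences were 0.40 (Dnm1l), 0.28 (Fis1), 0.20 (Mff), -0.016 (Mief1) and -0.056 (Mief2). How often averages of other genes are separated was not computed.

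Other genes of mitochondrial dynamics were taken from a list of 45, of which 40 were measured. Of these, 6 rose and 0 fell (limma, against 5.28% and 2.96% of all probe sets), with a median difference of 0.10, and 25 of 40 differences were above 0. The largest was Stoml2, the gene of an inner membrane scaffold protein that binds prohibitins and is found in a complex with YME1L and the protease PARL. It was 10.12, 10.31, 10.15 and 10.34 in the high and 9.27, 9.12, 9.69 and 9.37 in the low replicates. The fractions were well apart on every array, with a difference of 0.87 (1.83-fold, SE 0.12, limma adjusted p = 0.0034), and the call held on leaving out each of the 8 arrays in turn (0.79 to 0.98, highest adjusted p = 0.0148).

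Of 6 measured genes for ubiquitin and SUMO control of dynamics, 3 rose and 0 fell, against 5.28% and 2.96% of all probe sets. They were Mul1, an outer membrane ligase (difference 0.54, SE 0.13, limma adjusted p = 0.0306), Senp5, a SUMO protease (0.40, SE 0.10, 0.0332), and Marchf5, an outer membrane ubiquitin ligase that acts on fission and fusion proteins (0.32, SE 0.083, 0.0379). Among 9 measured kinases, phosphatases and anchors that act on DRP1, 1 rose, the calcineurin subunit Ppp3cb (0.39, SE 0.10, adjusted p = 0.0432). Of 10 further fission genes 1 rose, Slc25a46 (0.41, SE 0.12, adjusted p = 0.0497). Each of these is a single call. Quantile normalization and centring on array medians ended the calls of Marchf5 (adjusted p = 0.0645 and 0.0533), Ppp3cb (0.0570 and 0.0615) and Slc25a46 (0.0709 and 0.0646). Stoml2 was the call among 6 further fusion genes, and 0 of 5 inner membrane proteases and scaffolds and 0 of 4 transport genes were called. Other than Stoml2, each of these 5 calls held in 2 of the 8 omissions of 1 array, and Slc25a46 and Senp5 overlapped between the fractions. Stoml2, Mul1, Senp5 and Slc25a46 had means over the 8 arrays at or under the 95th percentile of the negative controls (9.92), while Marchf5 and Ppp3cb lay above it.

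**Figure D4:**
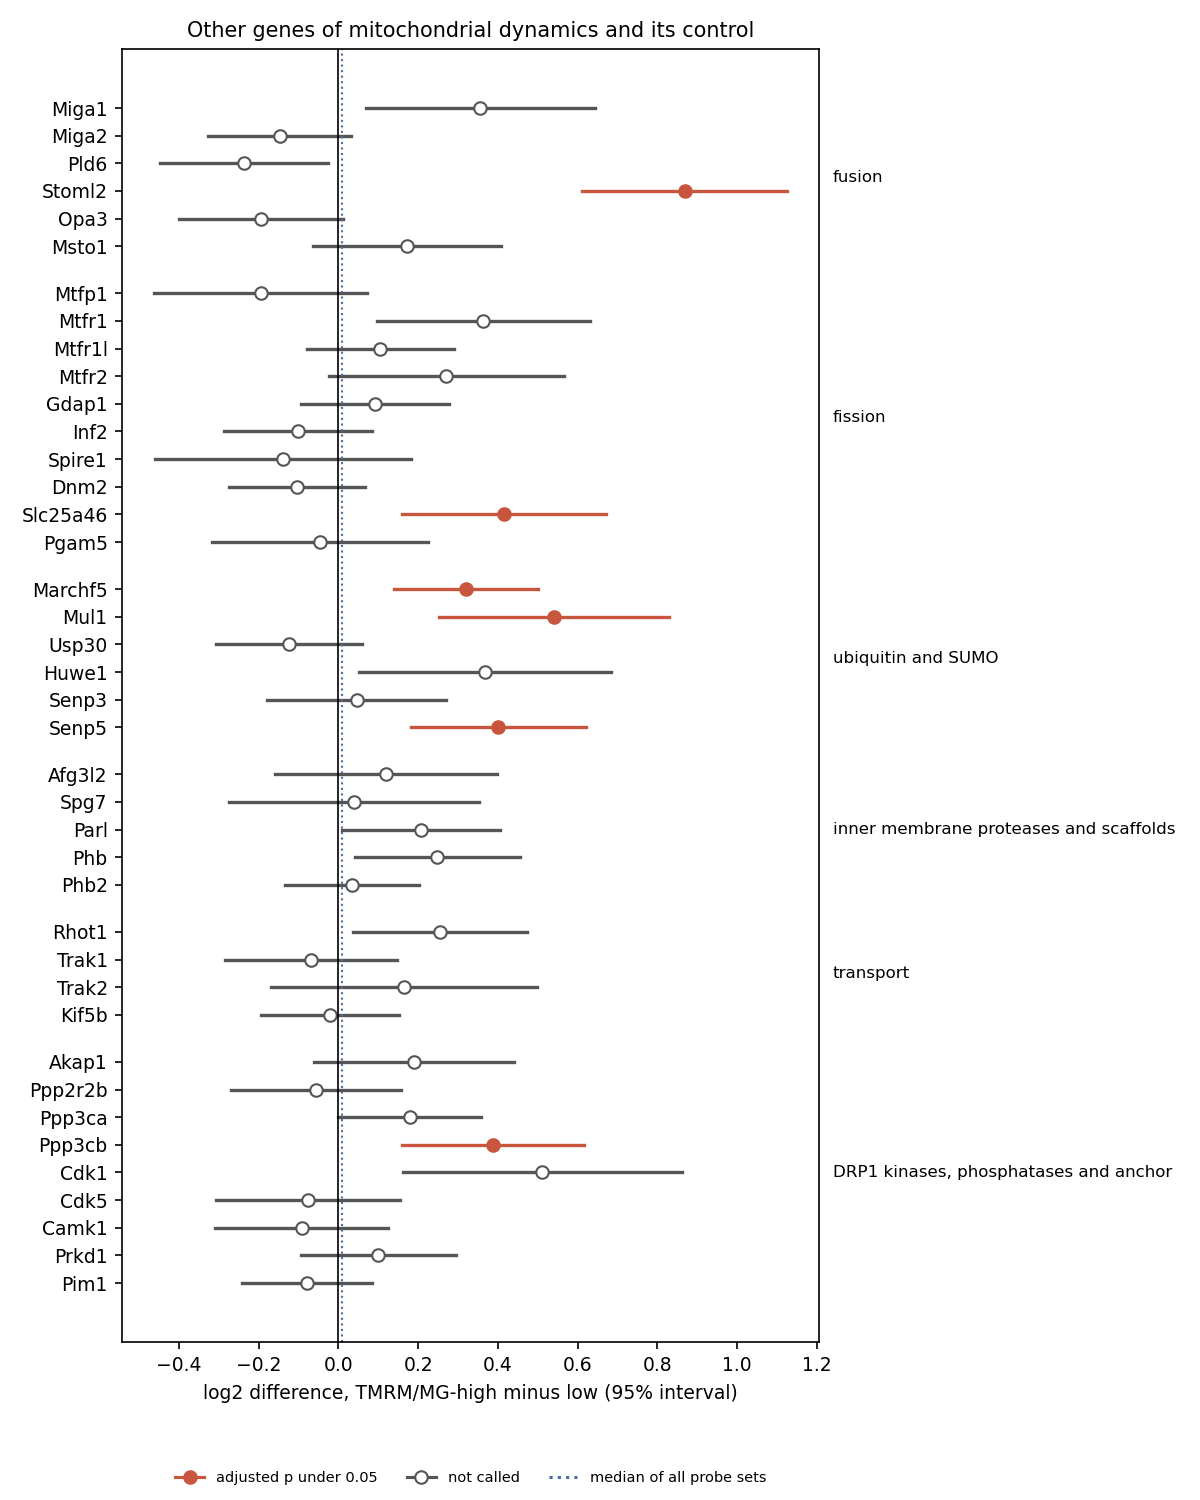
Log2 difference (TMRM/MG-high minus low) with its 95% interval for the 40 measured genes of the wider list, by role; filled red points have a limma adjusted p under 0.05. Stoml2 (0.87) stands apart, and the other 5 called genes lie between 0.32 and 0.54.

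With the mean spike-in level of each array as a covariate, limma called 0 members and 0 of all probe sets. At an unadjusted p under 0.05 there were 0 members higher and 2 lower (472 and 568 over all probe sets): Mfn1 (-0.55) and Oma1 (-0.69). In that fit Dnm1l differed by 0.14 (95% interval -0.35 to 0.63, adjusted p = 0.9996) and Fis1 by 0.082 (95% interval -0.34 to 0.50, adjusted p = 0.9996). Mff (0.26) and Mfn2 (0.042) stayed above 0, and Yme1l1 (-0.24) and Opa1 (-0.0031) fell below it. The spike-in level separated the fractions, so fraction and spike-in level can hardly be told apart with 8 arrays, and the intervals in this fit are wide.

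**Figure D5:**
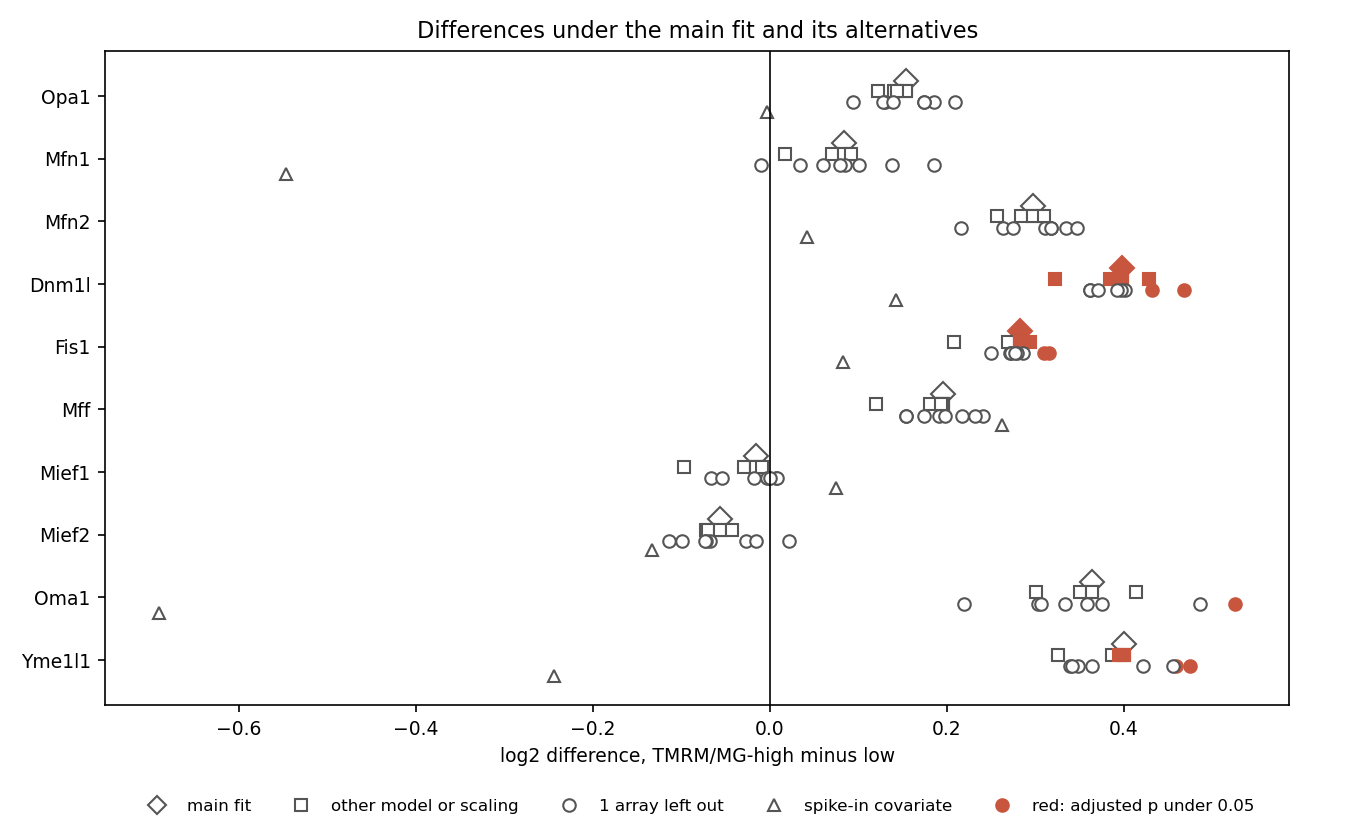
Log2 difference of each gene in the main fit (diamonds), under other models or scalings (squares), with 1 array left out (circles) and with the spike-in covariate (triangles); red marks an adjusted p under 0.05. Dnm1l stays between 0.32 and 0.47 except with the covariate (0.14), and the triangles of Mfn1 and Oma1 lie far to the left, at -0.55 and -0.69.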

How the data were processed

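The deposited values are log2 signals, 1 column per array. The authors used RMA, in Affymetrix Expression Console 1.1 (per the submitters' processing notes), and the target was made, per the labels' protocols, with the Whole Transcript Plus kit from column-purified total RNA. RMA gives all arrays one distribution of probe intensities, so a difference is read against the rest of the array. The deposited probe set values still differed slightly in level. Their medians over the tested probe sets ran from 8.106 to 8.165 in the high and from 8.111 to 8.156 in the low arrays. No genome build of the annotation was stated. Of 28846 rows, 6640 controls were left out. The 22206 others (19572 with a gene symbol) were fitted in R 4.3.3 with limma 3.58.1 (lmFit, eBayes), two-sided and without a block, with Benjamini-Hochberg adjustment over all of them; intervals are at 95%. The procedure was tested on simulated data. Ratios within arrays were compared by exact permutation tests. The members, lists, pairs and alternatives were chosen with earlier results of these data known. Named genes are the 10 members, called genes of the wider list, the 3 nearest profiles of Dnm1l, Opa1 and Mfn2, and Xcr1, Clec9a, Siglech and Cd3e. Other markers are given only as counts, except Cd8a and the measured macrophage and neutrophil markers. Those were named with their values known. Where a gene had several probe sets, the one of highest mean was used. Promoter sequences come from RefSeq (GRCm38.p6), matched by symbol. The number of arrays limits the precision. Alternatives were a replicate block, quantile normalization, median centring, a robust fit with an intensity trend, array weights, a filter on dim probe sets, a spike-in covariate, other thresholds and leaving out each array. Figures were drawn with matplotlib 3.10.9.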

Additional observations from a re-analysis of the deposited data

Results flagged for a closer look

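A sample stood far from the other 3 of its fraction in 2 of the 20 gene and fraction groups examined, and chance marks about 1 in 20 such groups. Fis1 in high replicate 1 was 11.39, against 11.49 to 11.51 in the other high arrays. Mief1 in low replicate 4 was 9.92, against 10.11 to 10.14 in the other low arrays.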

How the results depend on the processing

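Across all probe sets, 1173 were higher and 658 lower. A threshold of 0.01 gave 73 and 113 (0 members), and 0.1 gave 2061 and 1174 (4 members). An intensity trend with robust fit gave 1950 higher. Leaving out 1 array gave 183 to 1680 higher and 218 to 793 lower, with 0 to 4 members and 1 to 9 of the wider list higher. Quantile normalization and centring each left 1 member and 3 genes of the wider list. The spike-in covariate left 0 of each, and the median of the wider list became -0.048. With that covariate Mfn1 (-0.55), Oma1 (-0.69), Yme1l1 (-0.24), Opa1 (-0.0031), Slc25a46 (-0.014), Dnajb7 (-0.070), Lamp1 (-0.050) and Mylk3 (-0.0029) turned negative and Mief1 (0.075) positive; the cause was not tested. Small differences changed sign on leaving out 1 array: Mfn1 without low replicate 2 (-0.0094), Mief1 (-0.066 to 0.0076 over the omissions) without low replicate 3 (0.0068), high replicate 2 (0.0076) or 3 (0.00014), Mief2 (-0.11 to 0.021) without high replicate 4, and the ratio of Oma1 to Yme1l1 (-0.13 to 0.067) without low replicate 3 or high replicate 1 (0.011) or 4 (0.017). The ratio of Dnm1l to Mfn1 ran from 0.18 to 0.41. Its exact permutation p was under 0.05 only without low replicate 2 (0.0286), and the omissions were not adjusted over the 4 pairs. Same-numbered arrays deviated together at r = 0.27, 0.055, 0.015 and 0.039, so the numbers were not taken to pair samples. With the replicate block limma gave 1225 and 650 calls and 2 members, Dnm1l (adjusted p = 0.0279) and Yme1l1 (0.0457), while Fis1 had 0.0610; in the wider list 5 were called, and Marchf5 (0.0590), Ppp3cb (0.0578) and Slc25a46 (0.0701) lost their calls. A sign-flip test of same-numbered pairs cannot go below an exact p of 0.125. Leaving out dim probe sets (means not above 9.92, the 95th percentile of the negative controls) removed Opa1, Mfn1, Mfn2, Mief2 and Oma1, so they have no value there. Of the called genes of the wider list, Stoml2, Mul1, Senp5 and Slc25a46 were removed too. Averaging the probe sets of a gene was not run, since each member has 1.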

Other observations

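The genes whose profiles over the 8 arrays lay closest to those of Dnm1l, Opa1 and Mfn2, by the root mean square distance of log2 values centred on each gene's mean, were none of the members. For Dnm1l they were Gpalpp1 (distance 0.030), Ufm1, a ubiquitin-like modifier (0.034), and Psmb4, a proteasome subunit (0.038), which were called higher by 0.41, 0.35 and 0.40 (limma adjusted p = 0.0306, 0.0444 and 0.0220). Each of these 3 calls held in 2 of the 8 omissions of 1 array, and that of Ufm1 was lost after quantile normalization (adjusted p = 0.0666) and centring on array medians (0.0617). For Opa1 they were Mylk3 (0.048), Ppil2 (0.049) and the lysosomal membrane gene Lamp1 (0.050), with differences of 0.15, 0.15 and 0.15, none called. For Mfn2 they were Dnajb7 (0.051), Supt4b (0.057) and Zfyve9 (0.060), with differences of 0.24, 0.29 and 0.24, none called. Among the members, the closest profile to that of Dnm1l was that of Fis1 (0.081), which was also the closest member to Opa1, Mfn2, Mff and Yme1l1. The genes were ranked over all named probe sets, and the likeness was not tested. Profiles were matched over the same 8 arrays, so differences near those of Dnm1l, Opa1 and Mfn2 follow from the choice.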
